A study of Homo sapiens with 3 samples.

Results

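The G1 regulators described here are 10 genes, chosen by symbol from the 13479 genes of the deposited table. They are the D-type cyclins CCND1 and CCND3, the kinases CDK4, CDK6 and CDK2, the inhibitors CDKN1B and CDKN2C, and the pocket proteins RB1, RBL1 and RBL2. Every member had a value in every library, and 9 of the 10 reached a mean level of 5 CPM (CAGE tags scaled to a common library total), the minimum used for comparisons across 10788 genes. CDKN2C lay below that minimum and is given by its own values. The assay was CAGE, cap analysis of gene expression, in which each tag is read from the capped 5′ end of an RNA. The cells were EBC-1, a widely used line from a human squamous carcinoma of the lung. They were electroporated 72 h after plating with 600 pmol of a negative control siRNA, RAB11A siRNA 1 or RAB11A siRNA 2. RAB11A is a Rab GTPase that works on recycling endosomes. Each siRNA gave 1 library and no replicate, and the labels do not say how long after electroporation RNA was taken. Differences below are therefore between single libraries, and intervals and standard errors cover counting error only.

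Both RAB11A siRNAs are shown because they are the only difference between the libraries that the labels give. The capitals mark the 7 bases that match guide positions 2 to 8, with the given sequences read as sense strands.
siRNA 1: gcauccagguuGAUGGAAa
siRNA 2: agcaagagcuuUUGCAGAa
RAB11A itself had 135 CPM in the control library against 7.48 (siRNA 1) and 22.7 (siRNA 2), in the direction its labels give. The seed letters of siRNA 1 occurred in the canonical 3′ UTR of 0 of the 10 G1 regulators, against 14.6% of the genes compared that have an annotated 3′ UTR. Those of siRNA 2 occurred once each in CCND1 and CDKN2C, against 16.1% of the genes. CCND1 stood at 137 CPM with siRNA 2 and 135 with control, and CDKN2C at 2.40 and 1.76. A letter match is a description, and binding was not measured.

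In G1, D-type cyclins pair with CDK4 or CDK6 and phosphorylate the retinoblastoma protein and its relatives. The pocket proteins hold E2F transcription factors in check, and their phosphorylation lets E2F target genes needed for DNA replication be transcribed, after which cyclin E and cyclin A with CDK2 take over. INK4 inhibitors such as the product of CDKN2C bind CDK4 and CDK6, while the product of CDKN1B binds cyclin and CDK complexes, CDK2 among them. Loss of this control is frequent in lung squamous carcinoma.

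Of 10 markers of squamous and basal epithelium, PERP, SFN and S100A2 were in the table, with summed levels of 185.6 to 197.4 CPM over the libraries. TP63, SOX2, KRT5, KRT6A, KRT14, DSG3 and PKP1 matched no symbol there, so the squamous label could not be checked on its defining genes. Of 5 general epithelial markers, CDH1 matched no symbol, and KRT8, KRT18, KRT19 and EPCAM, the last at no more than 4.28 CPM, had a summed level of 827.5, 1013 and 878 CPM in control, siRNA 1 and siRNA 2 libraries. The 4 alveolar and 3 endothelial markers matched no symbol, and COL1A1 and COL1A2 of the 5 fibroblast markers summed to at most 3.32 CPM. CD68, a lysosomal glycoprotein and the 1 of 4 leukocyte markers found, stood at 45.2, 21.1 and 31.4 CPM. The value steps gave 0.04 CPM per tag in each library, and tags summed over genes came to between 25137458 and 25204585. The step implies a total of 25000000 tags in every library, so the sums over genes exceed it, and the reason was not tested.

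Levels of the G1 regulators spanned a wide range in the control library. CAGE counts 1 end per transcript, so CPM levels of different genes were compared without dividing by length. CDK4 was highest at 213 CPM (95% Poisson interval 207.6 to 219.1), and CCND1 followed at 135 (130.7 to 139.9). RBL2, CDK2 and RB1 came next at 75.8, 71.5 and 67.2 CPM, and each overlapped its neighbour in this order within counting intervals. RBL1 at 25.0, CDKN1B at 21.2 and CDK6 at 21.0 formed another run of overlapping neighbours, above CCND3 at 15.9 CPM. CDKN2C stood last at 1.76 CPM, on 44 tags. CDK4 ranked 882nd from the top of the 13479 genes and CDKN2C 12346th. CDK4 and CCND1 kept the first and second places in every library, and CDKN2C the last. CDK2 was the third with both RAB11A siRNAs, and its interval overlapped that of RBL2 with siRNA 2 but not with siRNA 1.

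**Figure D1:**
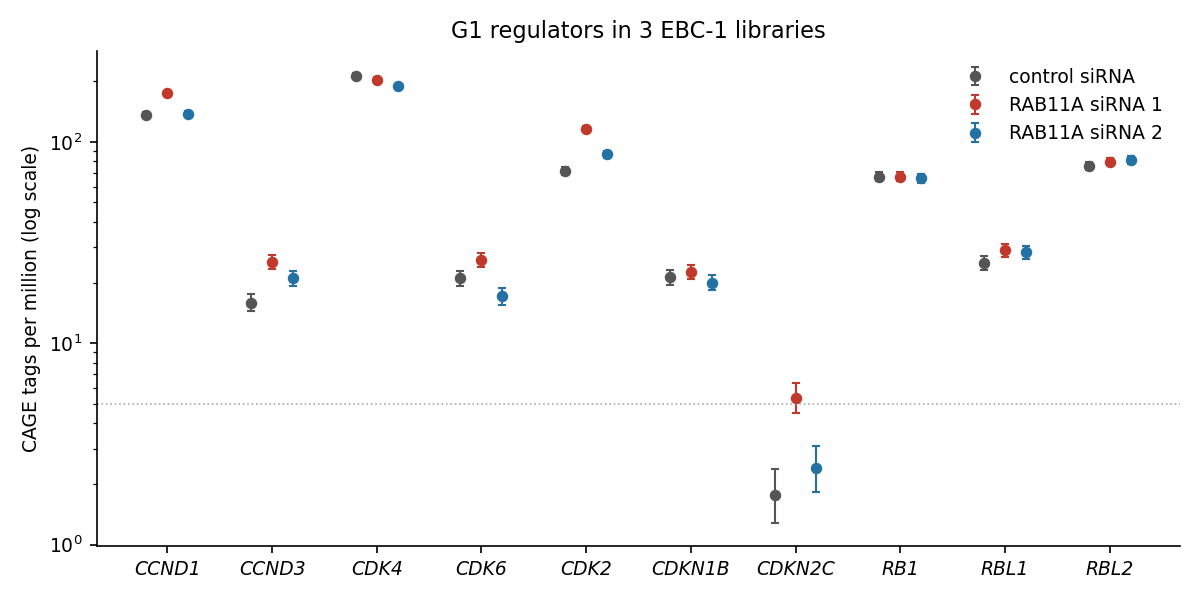
CAGE level of each G1 regulator (vertical axis, CPM on a log scale) in the control, siRNA 1 and siRNA 2 libraries; points are 1 library each, bars are 95% Poisson intervals of the tags, and the dotted line is the minimum mean of 5 CPM. CDK2 runs from 71.5 CPM in control to 116 with siRNA 1, while the 3 points of RB1 lie between 65.9 and 67.2.

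Against control, CDK2 and CCND3 were higher with both siRNAs, CCND1 was higher with siRNA 1, CDK6 lay on opposite sides of control, and RB1 differed little. Of the 9 compared members, 5 were above control in both siRNA libraries (CCND1, CCND3, CDK2, RBL1 and RBL2), against 31.4% of all genes compared. Such counts, here and for the lists below, take the sign alone, whatever the counting error. CCND1 with siRNA 2 (log2 ratio 0.02, counting standard error 0.035) and RBL2 with siRNA 1 (0.07, 0.046) lay within counting error. One member, CDK4, was below control in both, against 44.5% of all genes. The members' median log2 ratio of (CPM + 1) was 0.21 with siRNA 1 and 0.02 with siRNA 2, beside -0.03 and -0.04 over all genes. RB1 would also be above control in both under the other scalings, at 0.03 and 0.02, so its direction is not called. Both comparisons use the same control library. In RNA from many cells, a change in the share of cells in a cell cycle phase and a change in RNA per cell cannot be told apart.

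None of the 9 members was 2-fold from control in either library, on the log2(CPM + 1) scale that understates ratios of low genes. Over all genes with siRNA 1, 0.371% passed 2-fold upward and 0.519% downward, and with siRNA 2 these shares were 0.195% and 0.269%. At 1.5-fold, 2 of 9 members were higher with siRNA 1, CDK2 and CCND3, against 2.81% of all genes, and 0 of 9 with siRNA 2, against 1.24%. An exact two-sided binomial test of the tags, Benjamini-Hochberg adjusted over 10788 genes, compares the libraries and not the conditions. The edgeR and limma fits given after it pool 2 different siRNAs as 1 group beside 1 control library. Their spread is the difference between the 2 siRNA libraries, so their p-values do not measure spread between cultures. With siRNA 1 it called 5 members higher (CCND1, CCND3, CDK6, CDK2 and RBL1) and 1 lower (CDK4), where it called 23.3% and 29.1% of all genes. With siRNA 2 it called 3 higher (CCND3, CDK2 and RBL1) and 2 lower (CDK4 and CDK6), where it called 18.4% and 29.9% of all genes. When both siRNA libraries were taken as 1 group against the control, edgeR's quasi-likelihood test called 0 of 9 members at an adjusted p of 0.05, against 0.121% of all genes, and limma called 0, against 0.0649%. Unadjusted p was under 0.05 in both fits for 2 members, CCND3 and CDK2, against 14% of all genes in edgeR and 13.2% in limma. Their adjusted p was 0.22 and 0.28 in edgeR. RAB11A, the target, had an adjusted p of 0.067 in edgeR and 0.18 in limma.

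CCND1 (ENSG00000110092, chr11:69455924-69469242, plus strand, GRCh37) encodes cyclin D1, the growth factor-responsive partner of CDK4 and CDK6. Its levels were 135 CPM (control), 174 CPM (siRNA 1) and 137 CPM (siRNA 2). The siRNA 1 library was the high one, and the intervals of the other two overlapped. The siRNA 1 library had 1.29 times the control's tags (95% exact interval of the ratio 1.23 to 1.35), and the siRNA 2 library 1.02 times (0.968 to 1.07). Among all genes, 8.48% had a log2 ratio at least as high as CCND1 with siRNA 1.

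CCND3 (ENSG00000112576, chr6:41902672-42018095, minus strand) encodes cyclin D3, which can replace cyclin D1 at CDK4 and CDK6. It measured 15.9 CPM (control), 25.2 CPM (siRNA 1) and 21.0 CPM (siRNA 2), with the control lowest and no overlap of intervals between control and either siRNA library. The log2 ratio was 0.63 with siRNA 1 (counting standard error 0.088) and 0.38 with siRNA 2 (0.091). Of 18 distinct annotated starts of CCND3, 1 matched other places in the genome with 2 or fewer mismatches over 50 bases, and which start gave the tags was not tested. No start of the other 9 members had such a match. CCND1 made up 89.5% of the summed tags of CCND1 and CCND3 in control (exact interval 88.4% to 90.4%), 87.3% with siRNA 1 (86.4% to 88.3%) and 86.7% with siRNA 2 (85.6% to 87.8%). With CCND2, which is no member, added to the sum, its share was 81.1%, 80.8% and 79.6%, and the intervals of the 3 libraries overlapped.

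CDK4 (ENSG00000135446, chr12:58141510-58149796, minus strand) encodes the main D-cyclin kinase of many epithelial cells. It gave 213, 204 and 189 CPM in the control, siRNA 1 and siRNA 2 libraries. The tag ratio to control was 0.956 with siRNA 1 (0.920 to 0.994) and 0.887 with siRNA 2 (0.853 to 0.923). The siRNA 2 library was the low one, at a log2 ratio of -0.17, and 28.3% of all genes had a ratio at least as low.

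CDK6 (ENSG00000105810, chr7:92234235-92465887, minus strand) encodes the second D-cyclin kinase. It gave 21.0 CPM with control siRNA, 26.0 CPM with siRNA 1 and 17.1 CPM with siRNA 2, so that control lay between the siRNA libraries. The log2 ratio was 0.30 with siRNA 1 (counting standard error 0.081) and -0.28 with siRNA 2 (0.089). CDK6 was the only member on opposite sides of control with both ratios beyond counting error. By sign alone, 2597 of the 10788 genes compared were neither above control in both libraries nor below it in both. The CDK6 canonical 3′ UTR, 10219 bases long, held none of the seed letters of either siRNA. Only exact matches in the canonical 3′ UTR were searched, and an effect of either siRNA on CDK6 through its seed was not tested.

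CDK2 (ENSG00000123374, chr12:56360565-56366573, plus strand) encodes the kinase that works with cyclins E and A at the start of and during S phase. Its level was 71.5 CPM with control siRNA, 116 CPM with siRNA 1 and 86.8 CPM with siRNA 2, and the 3 intervals did not overlap. The tag ratio to control was 1.63 with siRNA 1 (1.53 to 1.72) and 1.21 with siRNA 2 (1.14 to 1.29). Only 1.64% of all genes had a log2 ratio as high as that of CDK2 with siRNA 1, and 8.33% with siRNA 2.

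The makeup of the 3 kinases differed between libraries. CDK2 held 23.4% of their summed tags in control (22.4% to 24.4%), 33.6% with siRNA 1 (32.6% to 34.6%) and 29.6% with siRNA 2 (28.6% to 30.7%). CDK4 held 69.7%, 58.9% and 64.5%, and remained the largest part in each library. The share of CDK6 was 6.87% in control, 7.51% with siRNA 1 and 5.84% with siRNA 2. Their summed level was highest with siRNA 1, at 346 CPM, beside 305.8 in control and 293 with siRNA 2.

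**Figure D2:**
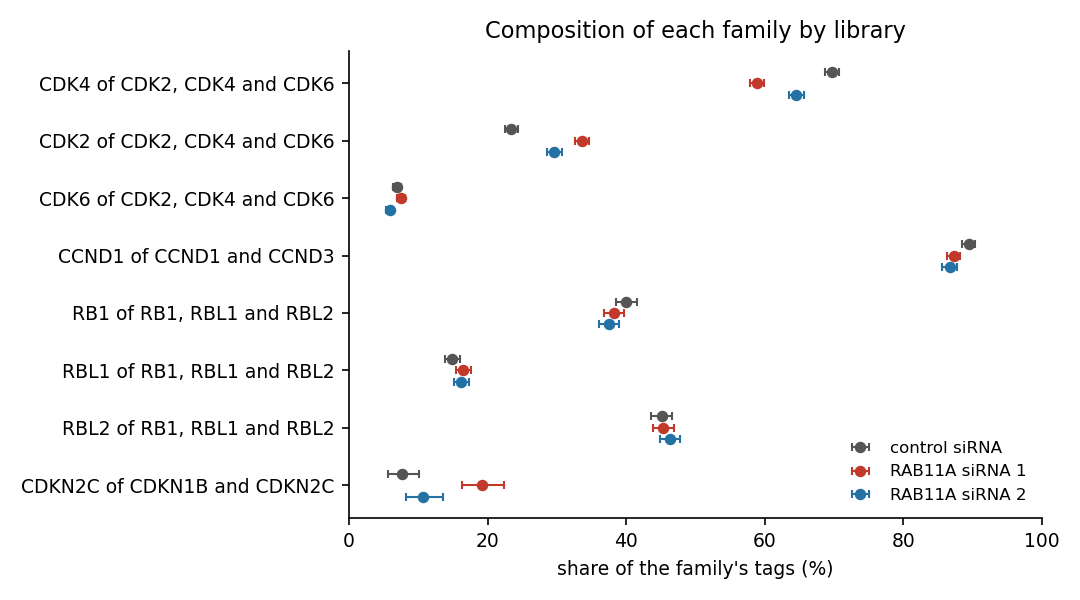
Share of each gene in the summed tags of its family (horizontal axis, percent) in each library, with 95% exact binomial intervals; colours are the 3 libraries. CDK2 takes 23.4% of kinase tags in control and 33.6% with siRNA 1, while the intervals of RBL2 overlap in all libraries.

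CDKN1B (ENSG00000111276, chr12:12838432-12875303, plus strand) encodes the Kip1 inhibitor of cyclin and CDK complexes. It gave 21.2 CPM (control), 22.6 CPM (siRNA 1) and 20 CPM (siRNA 2), with overlapping intervals. The tag ratio to control was 1.06 (0.942 to 1.20) with siRNA 1 and 0.942 (0.832 to 1.07) with siRNA 2, and both intervals include 1.

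CDKN2C (ENSG00000123080, chr1:51426417-51440306, plus strand) encodes an INK4 inhibitor of CDK4 and CDK6. It had 44 tags in control, 134 with siRNA 1 and 60 with siRNA 2, or 1.76, 5.36 and 2.40 CPM. The siRNA 1 library was the high one, and the other two overlapped. The tag ratio of siRNA 1 to control was 3.05 (2.15 to 4.38), and that of siRNA 2 was 1.36 (0.909 to 2.06). On the log2(CPM + 1) scale the ratios were 1.20 and 0.30. Its share of the tags of both inhibitors was 7.65% in control (5.61% to 10.1%), 19.2% with siRNA 1 (16.3% to 22.3%) and 10.7% with siRNA 2 (8.28% to 13.6%). With no minimum mean, CDKN2C was the member at least 2-fold from control with siRNA 1.

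The pocket proteins showed small differences. RB1 (ENSG00000139687, chr13:48877880-49173572, plus strand), the retinoblastoma tumour suppressor, had 1681 tags in control and also 1681 with siRNA 1, or 67.2 CPM, and 65.9 CPM with siRNA 2. The tag ratio to control was 1.00 (0.934 to 1.07) with siRNA 1 and 0.980 (0.915 to 1.05) with siRNA 2. RBL2 (ENSG00000103479, chr16:53467889-53525560, plus strand), the pocket protein of resting cells, stood at 75.8, 79.9 and 81.4 CPM, with tag ratios of 1.05 (0.989 to 1.12) and 1.07 (1.01 to 1.14). RBL1 (ENSG00000080839, chr20:35624752-35724400, minus strand), the pocket protein of cycling cells and itself an E2F target, stood at 25.0, 29.0 and 28.4 CPM. Its tag ratios were 1.16 (1.04 to 1.29) with siRNA 1 and 1.14 (1.02 to 1.27) with siRNA 2. RB1 held 40.0% of the pocket protein tags in control, 38.2% with siRNA 1 and 37.5% with siRNA 2, and the intervals of all 3 libraries overlapped for each of the 3 genes.

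RefSeq promoter windows on GRCh38.p14, 250 bases before to 50 after a start, were given for 8 of the 10 members in 14 windows. The entries missing were CCND1 and CDK2. Each window was searched on both strands for the E2F letters TTTGGCGC, TTTCCCGC, TTTCGCGC and TTTGCCGC, and for TTTGAA, the letters of the cell cycle homology region bound by MuvB complexes. RBL1 held E2F letters, and no other member's window did, against 3.31% of all 35116 windows. RBL2 held TTTGAA, 24 bases after its start, against 15.2% of windows. The RB1 window lies 172699 bases inside the gene, and the CCND3 windows 1347, 108227 and 110830 bases inside, so the first annotated starts of these genes were not searched. The 120 bases before the starts of RBL1 (chr20:37095998-37096117, minus strand) and RBL2 (chr16:53434351-53434470, plus strand) are printed to show the contrast within the family, with E2F letters in capitals.
RBL1: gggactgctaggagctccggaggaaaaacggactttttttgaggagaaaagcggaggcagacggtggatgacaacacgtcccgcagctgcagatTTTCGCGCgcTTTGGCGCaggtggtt
RBL2: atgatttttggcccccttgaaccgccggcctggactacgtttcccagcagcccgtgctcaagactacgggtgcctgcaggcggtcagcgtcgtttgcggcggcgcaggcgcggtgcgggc
In RBL1 the 2 runs start 26 and 16 bases before the transcript start, both on the strand printed, which is that of the RNA. The log2 ratios to control were 0.21 and 0.18 for RBL1 (counting standard errors 0.076 and 0.076), and 0.07 and 0.10 for RBL2 (0.046 and 0.045). Whether the letters bear on these ratios was not tested. Over all genes compared, 566 of 7551 with a window held E2F letters (7.50%), and their median log2 ratio was -0.01 with siRNA 1 and -0.04 with siRNA 2, beside -0.03 and -0.05 for those without.

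Downstream of the pocket proteins, 19 of 23 compared RB-E2F target genes were above control in both siRNA libraries, and 0 were below in both, against 31.4% and 44.5% of all genes. Their median log2 ratio was 0.35 with siRNA 1 and 0.21 with siRNA 2, and none was 2-fold from control. RRM2, the small subunit of ribonucleotide reductase, stood at 81.0, 153 and 130.9 CPM, though 1 of its starts has a copy elsewhere. TYMS, thymidylate synthase, stood at 175.6, 285 and 245.5 CPM. By the mean of both ratios, the lowest of the list were MCM7, a subunit of the replicative helicase, with ratios of 0.15 and -0.14, and CDT1, which loads that helicase, with 0.13 and -0.12. E2F letters stood in 13 of the 18 list genes with a promoter window (72.2%). These had medians of 0.35 with siRNA 1 and 0.17 with siRNA 2, beside 0.45 and 0.14 for those without the letters. The list was drawn up as genes known to respond to E2F, so this share describes the list and is no test of it. It and the other lists were chosen with earlier results of these data known, so their counts are descriptions too. The counts are not independent: CCNE1 and CCNE2 are also among the other cyclins below, and E2F1 among the E2F and DP genes.

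Of the 5 other G1 and S phase cyclins and CDKs compared, 4 were above control in both and 0 below, against 31.4% and 44.5% of all genes. CDK1, the mitotic kinase, stood at 120.3, 206 and 164 CPM, and CCNA2, cyclin A2, at 84.5, 135 and 93.0. CCNE1, cyclin E1, the activator of CDK2 at the start of S phase, had ratios of 0.02 and 0.09 with counting standard errors of 0.11 and 0.10. CCND2, the third D cyclin, stood at 15.6, 16.1 and 14.1 CPM. CCNE2, cyclin E2, had ratios of 0.23 and 0.36, and CCNA2 0.67 and 0.14. For CDK2 itself these were 0.69 with siRNA 1 and 0.28 with siRNA 2. CCNA1 and CDK3 matched no symbol.

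**Figure D3:**
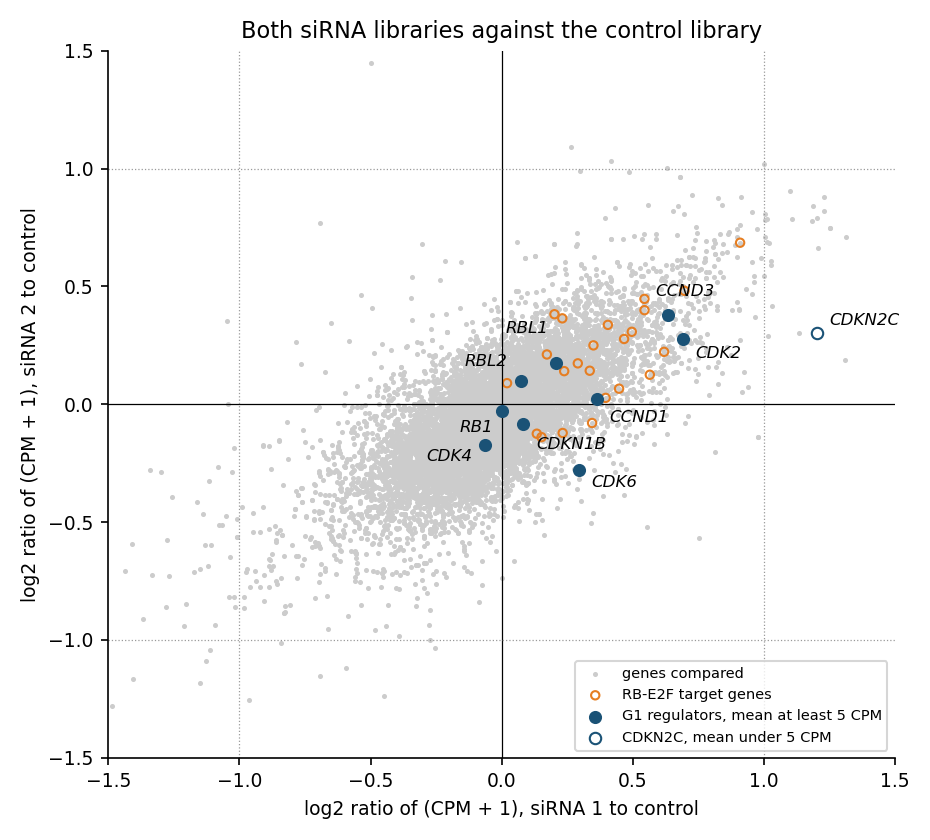
Log2 ratio of (CPM + 1) to control with siRNA 1 (horizontal) and siRNA 2 (vertical) for the 10788 genes compared (grey), RB-E2F target genes (open orange) and the G1 regulators (blue; CDKN2C open because its mean is under 5 CPM); dotted lines mark 2-fold, and 39 genes lie outside the axes. CDK2 and CCND3 lie at the upper right, RB1 at the centre, and CDK6 below the horizontal line at 0.30 and -0.28.

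In the E2F and DP family, 6 of 9 compared genes were above control in both and 1 was below in both, against 31.4% and 44.5% of all genes. Their medians were 0.04 and 0.03. E2F8, an atypical E2F that represses E2F targets, had the highest mean of both ratios to control, on levels of 5.08, 9.52 and 7.96 CPM, and E2F1, the classic activator, had ratios of 0.41 and 0.34. E2F4, the repressor that works with RBL1 and RBL2, had the lowest mean ratio to control, -0.30 with siRNA 1 and -0.51 with siRNA 2, on levels of 109.1, 88.2 and 76.3 CPM. E2F6, at 35.7, 36.0 and 33.7 CPM, has starts with copies elsewhere. The list of MuvB and DREAM partners holds MuvB subunits, a kinase that acts on MuvB and the cell cycle factors that bind MuvB later. Of its 7 compared genes, 1 was above and 2 were below control in both, against 31.4% and 44.5% of all genes, with medians of 0.16 and -0.15. MYBL2, which replaces the pocket protein on MuvB in S phase, stood at 60.3, 90.8 and 56.7 CPM. FOXM1, a mitotic factor on the same complex, had ratios of 0.40 and 0.08, while RBBP4, a histone-binding subunit with copied starts, had -0.11 and -0.26, and DYRK1A, a kinase that promotes assembly of the complex with RBL2, -0.19 and -0.22.

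Of the 4 other CDK inhibitors compared, 1 was above control in both and 2 were below, near the shares of all genes (31.4% and 44.5%), with medians of -0.13 and -0.09. CDKN3, a phosphatase that acts on CDK2 and CDK1, was above, at 73.6, 115.8 and 86.3 CPM. CDKN1A, the p53-responsive inhibitor, had ratios of -0.28 and -0.06, and CDKN1C, at 6.16, 4.52 and 4.60 CPM, -0.38 and -0.35. CDKN2A, whose locus gives the INK4A and ARF products that these gene counts do not separate, stood at 234.5, 236.6 and 217.4 CPM. Below the minimum of 5 CPM, CDKN2B had 139, 89 and 64 tags and CDKN2D 104, 122 and 114. Within the INK4 family, CDKN2C was above control and CDKN2B below it in both libraries, though the interval of CDKN2C with siRNA 2 overlapped that of control.

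Of the CDK-activating kinase genes and CDC25A, 1 of 4 was above control in both and 2 were below, also near the shares of all genes, with medians of -0.02 and -0.05. CDC25A, the phosphatase that activates CDK2, stood at 10.5, 16.1 and 13.5 CPM. CDK7, the activating kinase, stood at 52.7, 44.6 and 42.8, MNAT1 had ratios of -0.03 and -0.14, and CCNH, its cyclin partner, -0.01 and 0.03. Of 12 genes that control turnover of G1 regulators, 5 were above and 5 below control in both, or 41.7% each against 31.4% and 44.5% of all genes, with medians of -0.02 and 0.05. CKS2, a CDK-binding subunit whose values are identical to those of MIR3153, had ratios of 0.70 and 0.59, and RBX1, a cullin ligase subunit, 0.23 and 0.43. GSK3B, a kinase that marks cyclin D1 for export and turnover and has a start with a copy, had -0.28 and -0.23, and FBXO4, an F-box protein, -0.13 and -0.40.

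**Figure D4:**
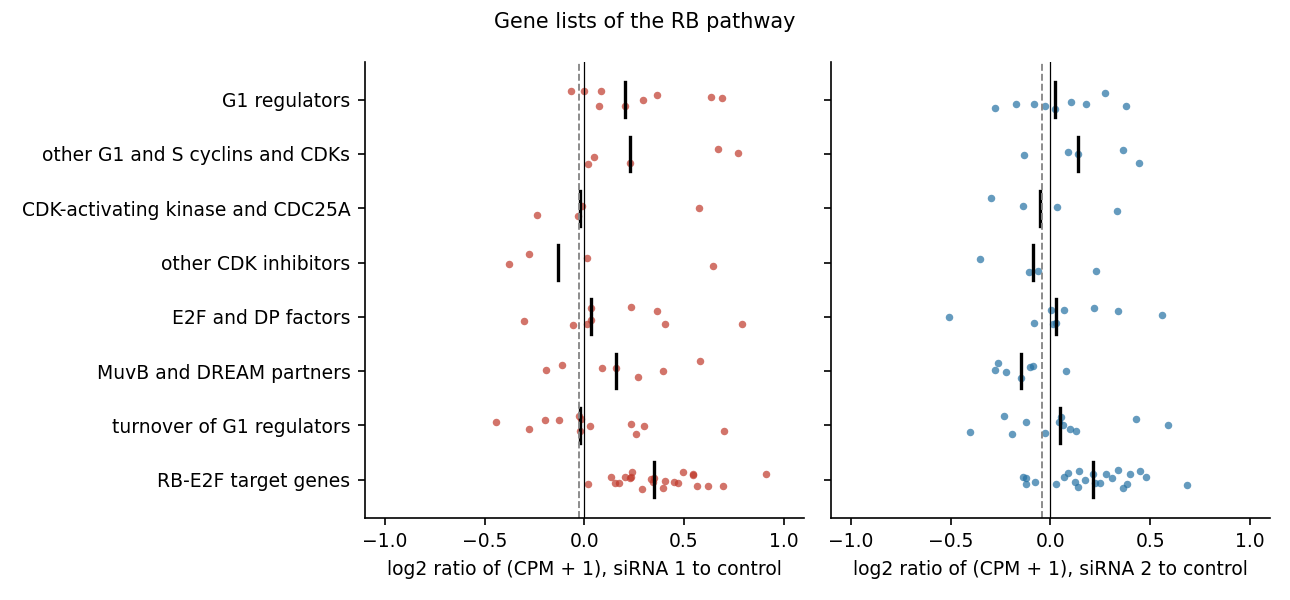
Log2 ratio of (CPM + 1) to control (horizontal) with siRNA 1 (left) and siRNA 2 (right) for each compared gene of 8 lists; black bars are list medians and the dashed line is the median of all genes compared. RB-E2F targets have medians of 0.35 and 0.21, and the G1 regulators 0.21 and 0.02.

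The siRNA libraries were also compared directly, without the control. Of the 9 members, 8 were higher with siRNA 1 than with siRNA 2, against 55.0% of all genes, with a median log2 ratio of 0.17 beside 0.02. None was 2-fold apart, where 0.167% of all genes passed 2-fold upward and 0.185% downward. The binomial test called 5 members higher with siRNA 1, CCND1, CCND3, CDK4, CDK6 and CDK2, and 0 lower, where it called 21.4% and 15.4% of all genes. CDK6 had the largest of these ratios, 0.58 (counting standard error 0.086), reached by 0.908% of all genes. CDK2 followed at 0.42 (0.041) and CCND1 at 0.34 (0.033). RB1, RBL1 and RBL2 lay between -0.03 and 0.03. Of the RB-E2F targets, 19 of 23 were higher with siRNA 1 than siRNA 2 (median 0.19), and of the E2F and DP genes 8 of 9 (0.09). The counts were 3 of 5 for other cyclins and CDKs, 2 of 4 for other inhibitors and 5 of 12 for turnover genes. Of the CDK-activating kinase genes and CDC25A, 3 of 4 were higher. All 7 compared MuvB and DREAM partners were higher with siRNA 1 than siRNA 2, with a median of 0.32, and MYBL2 had 0.67. The smallest of these ratios, 0.03 for DYRK1A (counting standard error 0.12), lay within counting error. LIN37, on the list but under the minimum of 5 CPM, was lower with siRNA 1, at 2.48 against 3.16 CPM. RAB11A was also lower with siRNA 1 than with siRNA 2, at 7.48 against 22.7 CPM, and its part in these differences was not tested.

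Likeness of pattern was measured as the distance between pairs of log2 ratios to control, over 61 pathway genes and 2 ratios from 3 libraries. Nearest to CDK2 was CDKN3, at 0.067, and nearest to CCND3 was CDC25A, at 0.074. Nearest to CDK6 was MCM6, a helicase subunit, at 0.17, with ratios of 0.23 and -0.12. Counting standard errors of the ratios were 0.043 and 0.045 for CDK2 and for CDKN3. They were 0.088 and 0.091 for CCND3, and 0.11 and 0.11 for CDC25A. Whether these genes remain the nearest within counting error was not tested.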

How the data were processed

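CAGE tags per gene were measured in 3 EBC-1 libraries of 1 group each. The authors deposited CPM per gene and strand, and their CPM steps of 0.04 gave whole tags for 99.8% of values in each library, within 0.005 CPM. Their processing notes name hg19, BWA and HISAT2, with their roles, versions, counting tool and annotation not stated in the labels or header. Log2 ratios of (CPM + 1) were computed where the mean reached 5 CPM (125 tags), with Poisson standard errors, exact Poisson intervals of levels and exact (Clopper-Pearson) 95% intervals of ratios and shares. A gene at least 2-fold apart counted as called. Alternatives were a pseudocount of 0.5 or 5 CPM, a lower (1 CPM), higher (20 CPM) or absent minimum, TMM and median-ratio scaling, a 1.5-fold threshold, the binomial test, and limma 3.58.1 and edgeR 4.0.16 (R 4.3.3) on both siRNA libraries against the control, where edgeR called 13 genes and limma 7 of 10788. On simulated tags with counting error only, all 50 genes changed 2.5-fold were called 2-fold for siRNA 1 against control. Of 50 genes changed 1.5-fold, 0 were called 2-fold and 48 by the binomial test. Of 10588 unchanged genes, 0 were called 2-fold and 7 by the binomial test. Spread between cultures was not simulated, so this checks the calculation and not the rate of false calls in these libraries. Members, lists and rules were chosen with earlier results of these data known. Named were all members, RAB11A, up to 2 highest and 2 lowest genes per list, and the pathway gene nearest to each of 3 members. CCNE2, CDKN2B, CDKN2D and LIN37 were named after their values were seen. Transcript starts were searched against GRCh37 with minimap2 2.31-r1302, with GENCODE v44 lifted to GRCh37, and promoters are RefSeq's. Protein comparisons were not made.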

Additional observations from a re-analysis of the deposited data

Results flagged for a closer look

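CDK6 was singled out because its log2 ratios to control had opposite signs in the siRNA libraries, 0.30 with siRNA 1 and -0.28 with siRNA 2, each beyond counting error. The difference was not tested against spread between cultures, since each siRNA has 1 library. Of all 10788 genes compared, 2597 were neither above control in both libraries nor below it in both, and so were 3 of the 9 members. These counts take the sign alone, and how many genes lay beyond counting error on opposite sides was not counted.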

How the results depend on the processing

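All values rest on 1 library per siRNA and 1 shared control. No paired analysis was possible because each group has 1 library. Depth limits CDKN2C, on 44 to 134 tags. All 189 log2 ratios of the 9 compared members under another pseudocount, minimum or scaling lay within the 95% counting interval of the reported ones. A minimum cannot change a gene's own ratio, so only another pseudocount or scaling could move these. Of the 189, 11 lay beyond 1 standard error, and the largest shift was 0.10. RB1 with siRNA 2 stood at 0.02 under both scalings in place of -0.03. At a minimum mean of 1 CPM or with no filter, CDKN2C entered and was the 1 member at least 2-fold from control with siRNA 1. It was then also the 1 member at least 1.5-fold higher with siRNA 1 than siRNA 2. A pseudocount of 0.5 CPM also gave 1 such member between siRNAs, but this was CDK6, at a log2 ratio of 0.59. A pseudocount of 5 CPM left 1 member 1.5-fold above control with siRNA 1. The binomial test called 6, 5 and 5 members in the 3 comparisons. Over all genes, 96 were 2-fold from control with siRNA 1, but 50 with a pseudocount of 5 CPM, 51 at a minimum of 20 CPM and 147 with no filter. With siRNA 2 there were 50, but 79 at 1 CPM, 21 at 20 CPM and 85 with no filter, and between siRNAs 38, but 11 at 20 CPM and 60 with no filter.

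At a minimum mean of 20 CPM, fewer genes were tested: the other cyclins and CDKs had medians of 0.72, 0.29 and 0.43 (siRNA 1 to control, siRNA 2 to control, siRNA 1 to siRNA 2) and 2 genes above control in both. There the median of other CDK inhibitors with siRNA 1 was 0.013 in place of -0.13, with 1 below in both. MuvB partners had 0.33 with siRNA 1 and 1 below in both, and RB-E2F targets 0.40 and 0.17 to control. Counts there were 0 above for CDK-activating kinase genes, 3 above for E2F and DP genes and 3 below for turnover genes. At 1 CPM or no filter, other inhibitors had 2 above, E2F and DP genes a median of 0.13 with siRNA 1, and turnover genes with no filter 0.046 between siRNAs. TMM and median-ratio scaling, which raised ratios to control by up to 0.05, gave 2 CDK-activating kinase genes above and 3 turnover genes below. Medians with siRNA 2 were then 0.10 under both for turnover genes and 0.26 under both for RB-E2F targets.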
